A study of Mus musculus with 6 samples.

Results

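The enteroendocrine hormone genes examined here are Gcg, Cck, Gip, Sct, Sst, Nts, Pyy, Ghrl, Tac1 and Tph1, which encode peptide hormone precursors and the serotonin synthesis enzyme of the endocrine cells of the gut. They were chosen by exact gene symbol, and all 10 were present among the 17526 genes of the table. The data are 6 RNA-seq libraries of crypts from the mouse small intestine. The 3 knockout libraries are labelled as lacking Fpr2 (formyl peptide receptor 2) in the intestinal epithelium and carry VKO in their titles, and the 3 floxed control libraries are called flox in their titles and WT in their genotype label. The labels give neither the Cre driver, nor the age, the sex or the segment of the intestine. They also do not say whether each library came from a separate animal, so the spread behind the p-values is that of the libraries and could be purely technical.

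Enteroendocrine cells are scattered secretory cells that arise from crypt stem cells under the transcription factor Neurog3, store hormones in dense-core granules and release them when nutrients or microbial products reach the gut. Different subtypes make different hormones: L cells make the glucagon precursor and peptide YY, N cells neurotensin, K cells GIP, I cells cholecystokinin, S cells secretin, X cells ghrelin, D cells somatostatin, and enterochromaffin cells serotonin and tachykinins. Cells of this lineage can switch hormones as they leave the crypt, and several hormones can be made by the same cell.

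Each of the 10 hormone genes was lower on average in the knockout crypts, by a similar factor, but no single gene passed the test over all genes. All 10 passed the filter on low counts, and their log2 fold changes (knockout over floxed control) lay between -0.92 and -0.47, with a median of -0.79, against a median of -0.01 for all 12943 genes tested, of which 51.9% had a negative value. By edgeR's quasi-likelihood test with Benjamini-Hochberg adjustment, 0 of the 10 were called at an adjusted p under 0.05, where 0.0155% of all genes tested were called in either direction (0.00773% lower and 0.00773% higher). At an unadjusted p under 0.05, 8 of the 10 were lower in the knockouts, against 9.63% of all genes tested, and 0 were higher, against 4.09%. With DESeq2 the call was 1 gene lower, Gcg, against 2.4% of genes lower and 0.299% higher by that tool. For 7 of the 10 every knockout library lay below every floxed control, against 10.3% of all genes tested.

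Summed over the 10 genes, the level was 282, 197 and 298 CPM in knockouts 1, 2 and 3, against 394, 387 and 578 CPM in floxed controls 1, 2 and 3 (CPM, counts relative to library size, with libraries scaled by the TMM method of edgeR). The groups did not overlap. The mean was 259 ± 54.3 CPM in the knockouts and 453 ± 108 CPM in the floxed controls (SD, n = 3 each), a log2 ratio of -0.81. As a plain share of all counts the hormones took 0.0278% ± 0.00498 in the knockouts and 0.0415% ± 0.00667 in the floxed controls (SD, n = 3 each), a log2 ratio of -0.58. The scaling factors were 1.05, 1.13 and 1.06 in the knockouts and 1.03, 0.914 and 0.842 in the floxed controls. In bulk crypts, fewer endocrine cells and less hormone RNA in each cell cannot be told apart.

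**Figure D1:**
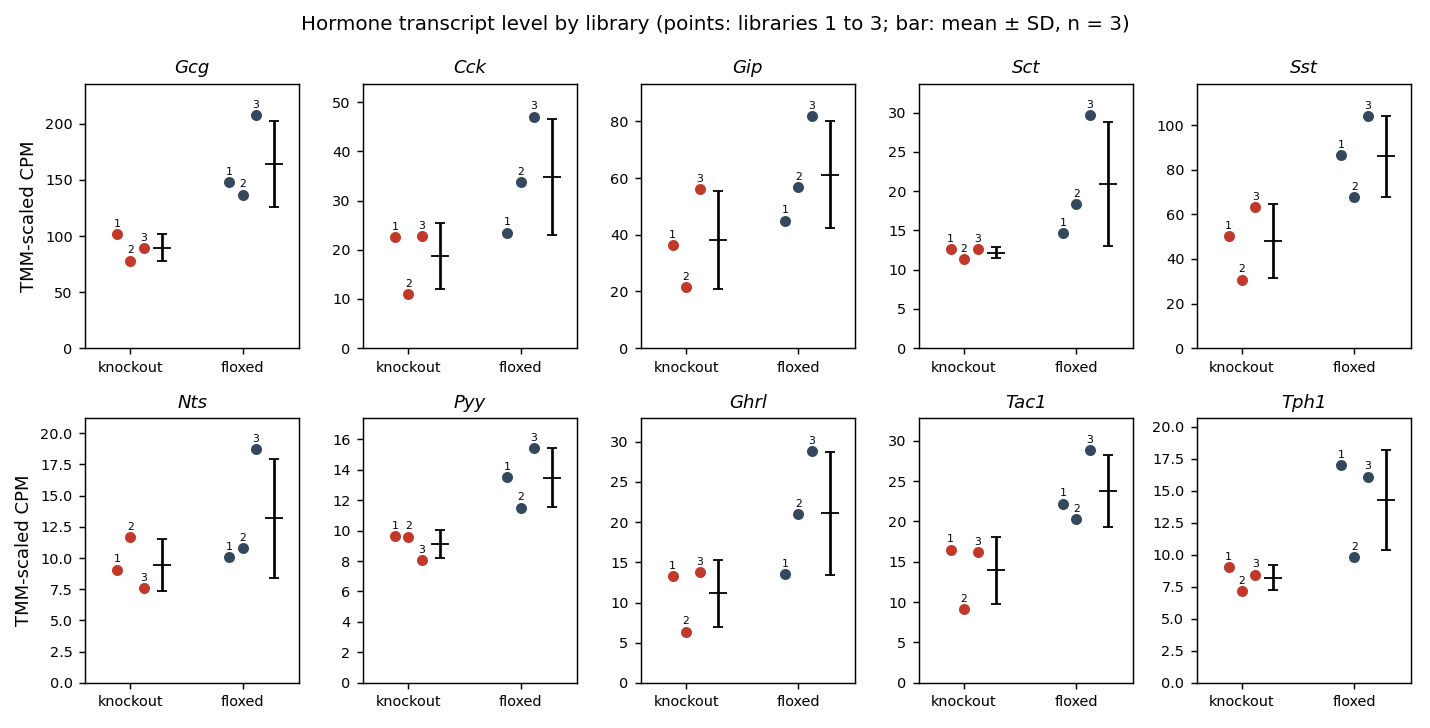
TMM-scaled CPM of each hormone gene (vertical axes, from 0) in the knockout (red) and floxed control (dark blue) libraries, numbered 1 to 3, with the mean and SD of n = 3 to the right of each group. All 10 means are lower in the knockouts, the groups overlap for Gip, Nts and Ghrl, and floxed control 3 is the highest control for 9 of the 10 genes.

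Total counts ran from 16542933 to 16859902 in the knockouts and from 11108511 to 16695304 in the floxed controls. Counts of single hormone genes ran from 116 (Nts in floxed control 1, exact Poisson 95% interval 95.9 to 139, which covers counting error only) to 2111 (Gcg in floxed control 3). Fpr2 was not analysed here, so the genotype labels were not checked on the targeted gene. Libraries also differed in the RNA levels of marker genes of other cell types. The T and intraepithelial lymphocyte list (12 genes tested, with Cd3e and Gzma) had centred log2 levels of -0.65, -0.57 and -0.43 in knockouts 1, 2 and 3, against 1.30, -0.65 and 1.0 in floxed controls 1, 2 and 3. For the Paneth list (14 genes tested) they were -0.39, -0.91 and -0.98, against 0.57, 0.45 and 1.26. The mean level of the hormone genes on that scale was -0.22, -0.71 and -0.20 in the knockouts, against 0.17, 0.20 and 0.77 in the floxed controls. Other lists also had lower values in the knockouts: all 10 tested tuft genes and all 12 goblet genes, which mark other secretory cells, were negative, with median log2 fold changes of -1.03 and -0.72. All 7 tested B and plasma cell genes and all 3 erythroid genes were negative as well, with medians of -1.79 and -1.94. Of 12 enterocyte genes 10 were negative, with a median of -0.20. The part of these other cell types in the hormone differences was not tested.

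Gcg (gene 14526, chr2:62474530-62483653, GRCm38.p6) encodes proglucagon, which L cells cut into the glucagon-like peptides that promote insulin release and mucosal growth. It stood at 102, 78.1 and 89.1 CPM in knockouts 1, 2 and 3, against 148, 137 and 208 CPM in floxed controls 1, 2 and 3. Every knockout was below every floxed control, and the difference exceeded the spread within either group. The log2 fold change was -0.87 ± 0.20 (SE; adjusted p = 0.124 by edgeR), so that the fitted knockout level was 54.7% of that of the floxed controls. Gcg had the smallest p of the hormone genes. DESeq2 gave it an adjusted p of 0.0060, and edgeR gave 0.0198 without floxed control 2; over the 16 alternatives it ranged from 0.0060 to 0.807.

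Pyy (gene 217212, chr11:102106676-102107832), the L cell peptide that slows gut transit and reduces appetite, stood at 9.65, 9.60 and 8.06 CPM in knockouts 1, 2 and 3, against 13.5, 11.5 and 15.4 CPM in floxed controls 1, 2 and 3. The groups did not overlap, and the knockouts were close to each other. Its log2 fold change was -0.56 ± 0.20 (adjusted p = 0.242 by edgeR). Nts (gene 67405, chr10:102481756-102490418), the neurotensin precursor of N cells, which aids fat absorption, had 9.08, 11.7 and 7.61 CPM in the knockouts, against 10.1, 10.8 and 18.7 CPM in the floxed controls. Knockout 2 exceeded 2 of the floxed controls, and floxed control 3 stood apart from the other 5 libraries. The log2 fold change of Nts was -0.47 ± 0.27 (adjusted p = 0.478), the smallest of the hormone genes, and it was -0.10 without floxed control 3.

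Gip (gene 14607, chr11:96024532-96030831) encodes the K cell hormone that enhances insulin release after a meal. It had 36.3, 21.6 and 56.1 CPM in knockouts 1, 2 and 3, against 45.0, 56.8 and 81.8 CPM in floxed controls 1, 2 and 3. Knockout 3 lay among the floxed controls, and the fold change of -0.69 ± 0.32 on the log2 scale did not pass (adjusted p = 0.371 by edgeR). It was -0.40 without knockout 2, -0.39 without floxed control 3 and -1.07 without knockout 3. Cck (gene 12424, chr9:121489824-121495694), the I cell hormone that contracts the gallbladder and signals satiety, had 22.5, 11 and 22.8 CPM in the knockouts, against 23.5, 33.7 and 47.1 CPM in the floxed controls. The groups did not overlap, but floxed control 1 lay close above knockouts 1 and 3. The log2 fold change of Cck was -0.89 ± 0.31 (adjusted p = 0.238), and it was -0.57 without floxed control 3. Cck overlaps the RefSeq long non-coding RNA gene Gm38661, and without a stated strand setting their reads cannot be told apart; no other hormone gene overlaps a RefSeq gene.

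Sct (gene 20287, chr7:141278329-141279174) encodes secretin, which stimulates bicarbonate secretion. It had 12.6, 11.3 and 12.6 CPM in knockouts 1, 2 and 3, against 14.6, 18.3 and 29.7 CPM in floxed controls 1, 2 and 3. The knockouts formed a narrow range below all controls, while the controls were widely spread. The log2 fold change was -0.78 ± 0.25 (adjusted p = 0.214 by edgeR), and it was -0.40 without floxed control 3. Ghrl (gene 58991, chr6:113716119-113719911), which encodes the appetite-stimulating hormone ghrelin, had 13.3, 6.38 and 13.8 CPM in the knockouts, against 13.5, 21.0 and 28.8 CPM in the floxed controls. Floxed control 1 lay between knockouts 1 and 3, so the groups overlapped. Ghrl nevertheless had the largest fitted log2 fold change of the 10, -0.92 ± 0.33 (adjusted p = 0.249), which was -0.59 without floxed control 3. Sst (gene 20604, chr16:23889573-23891342), the D cell hormone somatostatin that restrains other endocrine cells, had 50.2, 30.7 and 63.3 CPM in the knockouts, against 86.5, 67.7 and 104 CPM in the floxed controls. The groups did not overlap, though knockout 3 was close to floxed control 2. The log2 fold change of Sst was -0.84 ± 0.26 (adjusted p = 0.193).

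Tac1 and Tph1 belong to enterochromaffin cells. Tac1 (gene 21333, chr6:7555061-7562978), the precursor of substance P and neurokinin A, had 16.5, 9.12 and 16.2 CPM in knockouts 1, 2 and 3, against 22.2, 20.3 and 28.8 CPM in floxed controls 1, 2 and 3. The groups were separate, and the log2 fold change was -0.76 ± 0.25 (adjusted p = 0.214 by edgeR). Tph1 (gene 21990, chr7:46644641-46672537), the rate-limiting enzyme of serotonin synthesis outside the nervous system, had 9.03, 7.14 and 8.45 CPM in the knockouts, against 17, 9.83 and 16.1 CPM in the floxed controls. Floxed control 2 lay just above the knockouts, while floxed controls 1 and 3 were far above them. The log2 fold change of Tph1 was -0.80 ± 0.24 (adjusted p = 0.191). Without floxed control 2 it was -1.0 and passed the threshold (adjusted p = 0.0180, with a range of 0.0180 to 0.845 over the 16 alternatives). Without floxed controls 1 and 3 it was -0.20, with 1 control library left.

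Scaled per kilobase of exon, from the union of GENCODE M21 exons, the order of the levels was nearly the same in both genotypes. Sst, Gcg and Gip were the most abundant, at 66.7 ± 22.7, 60.1 ± 8.10 and 55.4 ± 25.2 CPM per kilobase in the knockouts and 119 ± 25.1, 110 ± 25.5 and 89.1 ± 27.4 in the floxed controls (SD, n = 3 each). Sst did not differ from Gcg, nor Gcg from Gip, by more than the larger SD. Sct followed, at 18.8 ± 1.18 in the knockouts and 32.4 ± 12.2 CPM per kilobase in the floxed controls, below Gip by more than the larger SD in both groups. Cck and Pyy came next and did not differ from each other beyond their spread. Ghrl was at 10.3 ± 3.84 in the knockouts and 19.5 ± 7.05 CPM per kilobase in the floxed controls, and Nts was at 7.60 ± 1.68 and 10.6 ± 3.83. The lowest were Tac1, at 4.11 ± 1.23 in the knockouts and 6.99 ± 1.30 in the floxed controls, and Tph1, at 1.33 ± 0.157 and 2.32 ± 0.632 CPM per kilobase. The annotated exons of Tph1 span 6.17 kilobases, so its place depends on how much of them the mRNA in these cells uses, which was not measured.

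The promoter windows of 4 of these genes are shown as a description of sequence, and their part in the hormone levels was not tested. These windows were picked for holding the letter patterns marked below, which also occur in windows of other genes. Each window, from the RefSeq table for GRCm38.p6, runs from 250 bases before to 50 bases after the start site, 5′ to 3′ on the strand of the gene. Capitals mark TATAAA (the TATA box), CAGATG (an E-box form bound by endocrine factors such as Neurod1) and TGACGTCA (the cyclic AMP response element), on either strand. In the order shown they lie at chr2:62483604-62483903, chr7:141279084-141279383, chr9:121495645-121495944 and chr16:23890795-23891094, all on the minus strand.
Gcg: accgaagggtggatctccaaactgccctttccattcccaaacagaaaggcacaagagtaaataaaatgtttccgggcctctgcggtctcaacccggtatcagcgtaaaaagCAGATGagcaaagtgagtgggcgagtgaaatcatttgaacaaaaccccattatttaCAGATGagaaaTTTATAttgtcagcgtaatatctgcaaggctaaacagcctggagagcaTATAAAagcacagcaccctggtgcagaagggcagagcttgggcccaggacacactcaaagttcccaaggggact
Sct: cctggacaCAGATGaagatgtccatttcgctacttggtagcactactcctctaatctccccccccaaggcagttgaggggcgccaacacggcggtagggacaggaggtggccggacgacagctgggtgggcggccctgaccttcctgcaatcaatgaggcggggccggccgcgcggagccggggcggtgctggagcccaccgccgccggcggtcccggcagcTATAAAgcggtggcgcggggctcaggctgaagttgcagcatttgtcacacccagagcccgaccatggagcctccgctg
Cck: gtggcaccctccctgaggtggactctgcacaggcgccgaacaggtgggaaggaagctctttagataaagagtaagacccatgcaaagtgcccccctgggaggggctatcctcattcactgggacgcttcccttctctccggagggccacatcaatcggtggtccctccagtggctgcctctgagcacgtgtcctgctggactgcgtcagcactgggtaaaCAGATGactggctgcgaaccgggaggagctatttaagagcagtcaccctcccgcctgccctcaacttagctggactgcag
Sst: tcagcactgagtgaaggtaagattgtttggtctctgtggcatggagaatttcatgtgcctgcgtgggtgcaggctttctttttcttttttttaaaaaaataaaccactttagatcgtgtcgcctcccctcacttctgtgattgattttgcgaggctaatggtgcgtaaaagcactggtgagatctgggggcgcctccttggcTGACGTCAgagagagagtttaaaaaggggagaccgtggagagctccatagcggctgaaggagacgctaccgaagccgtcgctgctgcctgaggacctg
Counted from the start site, TATAAA begins at position -24 in the Gcg window, with CAGATG at -83 and -139 and a reverse match to TATAAA at -72. In the Sct window TATAAA begins at -28 and CAGATG at -242, in the Cck window CAGATG begins at -30, and in the Sst window TGACGTCA begins at -48.

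All 10 genes had at least 1 such window, 15 in all, and 11 motifs were searched on both strands in them and in all 32851 windows of the table. CAGATG occurred for 5 of the 10 genes (Gcg, Cck, Sct, Ghrl and Tac1), in 6 of the 15 hormone windows and in 17.2% of all windows. For Ghrl the matches lay after the start site, in overlapping windows. TATAAA occurred for 2 genes, in 2 of the 15 windows against 13.6% of all windows, and TGACGTCA for 1, Sst, in 1 of the 15 against 1.79%. CANNTG, the general E-box that includes CAGATG and CAGCTG, occurred for all 10 genes, in 14 of the 15 windows and in 72.3% of all windows. CAGCTG was found for 4 genes (4 of the 15 windows against 16.3% of all windows). TGACG, which TGACGTCA includes, was found for 5 (6 of the 15 against 20.8%). TGANGTCA, which also includes TGACGTCA, was found for 2 (2 of the 15 against 8.83%). CACCC was found for 9 genes (12 of the 15 windows against 57.5%) and GGGCGG for 3 (3 of the 15 against 35.7%). TAATNAG was found for 2 (2 of the 15 against 9.0%) and TGTTTAC for 1 (1 of the 15 against 3.65%). Genes with several windows had more chances of a match, and these matches are descriptions of the letters only.

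The hormones did not vary among libraries as a single block. Within the knockouts, knockout 2 was the lowest library for 8 of the 10 genes. Cck, Ghrl, Gip, Tac1 and Sst stood between -1.18 and -0.95 there on the centred log2 scale, while Nts stood at 0.11. Across the 6 libraries, after subtraction of the group means, the 10 pairs among those 5 genes had Pearson r from 0.738 to 0.999, the highest for Cck with Ghrl. Nts and Pyy, which rise towards the ileum in mice, had r = 0.779 with each other, and from -0.16 to 0.13 with the 5. Gcg, Sct and Tph1 belonged to neither grouping. Gcg had r = 0.753 with Cck and 0.648 with Pyy. Sct had 0.748 with Cck and 0.722 with Nts, but 0.443 with Sst. Tph1 had 0.667 with Sst and 0.603 with Pyy, but 0.201 with Cck and 0.104 with Nts. These groupings were chosen after the values were seen, and the points share libraries and depth, so the correlations are descriptive.

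**Figure D2:**
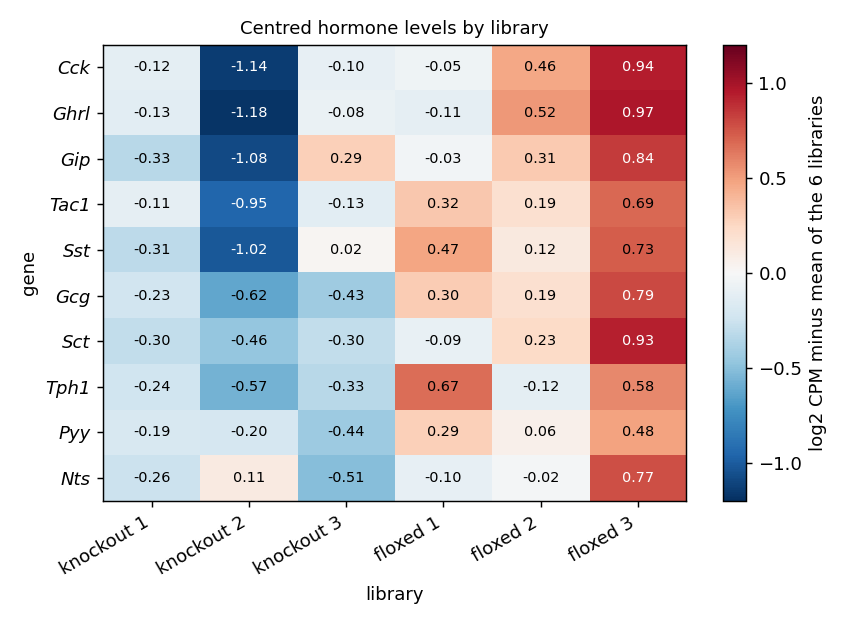
Log2 CPM of each hormone gene minus its mean over the 6 libraries (colour and printed value), with the knockout libraries on the left. Knockout 2 is between -1.18 and -0.95 for the upper 5 genes and at 0.11 for Nts, and floxed control 3 is positive for all 10.

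Markers of position along the intestine were set beside this pattern. Fgf15, the ileal hormone induced by bile acids, was at 1.07, 4.51 and 0.672 CPM in knockouts 1, 2 and 3, against 0.611, 0.656 and 0.886 CPM in floxed controls 1, 2 and 3. Slc10a2, the ileal bile acid transporter, was at 30.2, 72.5 and 34.6 CPM in the knockouts, against 44.5, 11.9 and 48.3 CPM in the floxed controls. Knockout 2 was the highest library for both. Gata4, a transcription factor of the proximal intestine, was at 85.8, 72.6 and 111 CPM in the knockouts, against 79.7, 120 and 94.1 CPM in the floxed controls, so knockout 2 was the lowest. The 7 tested distal genes had centred log2 levels of 0.00, 0.49 and -0.19 in the knockouts and -0.11, -0.39 and 0.21 in the floxed controls, and the 5 tested proximal genes had -0.09, -0.50 and -0.10 and 0.41, -0.02 and 0.29. Their part in the hormone values was not tested. Without knockout 2 the median log2 fold change of the 10 hormone genes was -0.62, and Cck, Ghrl and Tac1 stood at -0.61, -0.63 and -0.53.

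Genes for granule proteins shared by endocrine subtypes also had lower values in the knockouts. All 16 genes of the granule list were tested, all 16 had negative log2 fold changes, and the median was -0.91. By edgeR 0 were called over all genes and 14 were lower at an unadjusted p under 0.05 (9.63% of all genes tested); with DESeq2, 4 were called lower (2.4% of all genes). Chga, the granule protein chromogranin A, was at 112, 91.0 and 134 CPM in knockouts 1, 2 and 3, against 230, 149 and 247 CPM in floxed controls 1, 2 and 3 (log2 -0.89 ± 0.22, adjusted p = 0.140). Ptprn2, a phosphatase-like protein of the granule membrane, had the largest difference of the list, at 46.1, 28.1 and 22.1 CPM in the knockouts, against 97.8, 60.4 and 107 CPM in the floxed controls (log2 -1.46 ± 0.29, adjusted p = 0.0952). Scgn, a calcium-binding protein of endocrine cells, had a log2 change of -1.11 ± 0.27, and Syt7, a calcium sensor of exocytosis, -0.96 ± 0.24. For Chga, Ptprn2, Scgn and Syt7, named for their small p, every knockout lay below every floxed control. That was so for 12 of the 16 granule genes, against 10.3% of all genes tested. For Chgb, chromogranin B, the groups overlapped (log2 -0.74 ± 0.23).

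Relative to these granule genes, the mean log2 hormone levels of the genotypes were at most 0.49 apart. The level of each hormone was divided by the geometric mean CPM of the 16 granule genes in the same library, a ratio that does not depend on library scaling. That geometric mean was 4.85 ± 0.356 CPM in the knockouts and 9.43 ± 2.26 CPM in the floxed controls (SD, n = 3 each). For Gcg the log2 ratio was 4.20 ± 0.0907 in the knockouts and 4.13 ± 0.202 in the floxed controls (exact two-sided permutation p = 0.7, and 0.889 adjusted over the 10 genes). For Ghrl it was 1.12 ± 0.549 in the knockouts and 1.12 ± 0.594 in the floxed controls (exact permutation p = 1.0). The ratio was on average higher in the knockouts for 9 of the 10 genes, by 0.49 for Nts and 0.37 for Pyy and by less for the others, with a median of 0.15. Pyy was the only one whose knockouts all exceeded the floxed controls, at 0.883, 1.08 and 0.749 in knockouts 1, 2 and 3, against 0.455, 0.716 and 0.426 in floxed controls 1, 2 and 3 (two-sided p = 0.1 by exact permutation, the lowest value possible with 3 against 3, and 0.667 adjusted over the 10 genes). None of the 10 could pass a threshold of 0.05 in this design. With single libraries left out, the median ran from -0.01 (without floxed control 1) to 0.29 (without knockout 2), and without floxed controls 1 and 3 together it was -0.06.

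**Figure D3:**
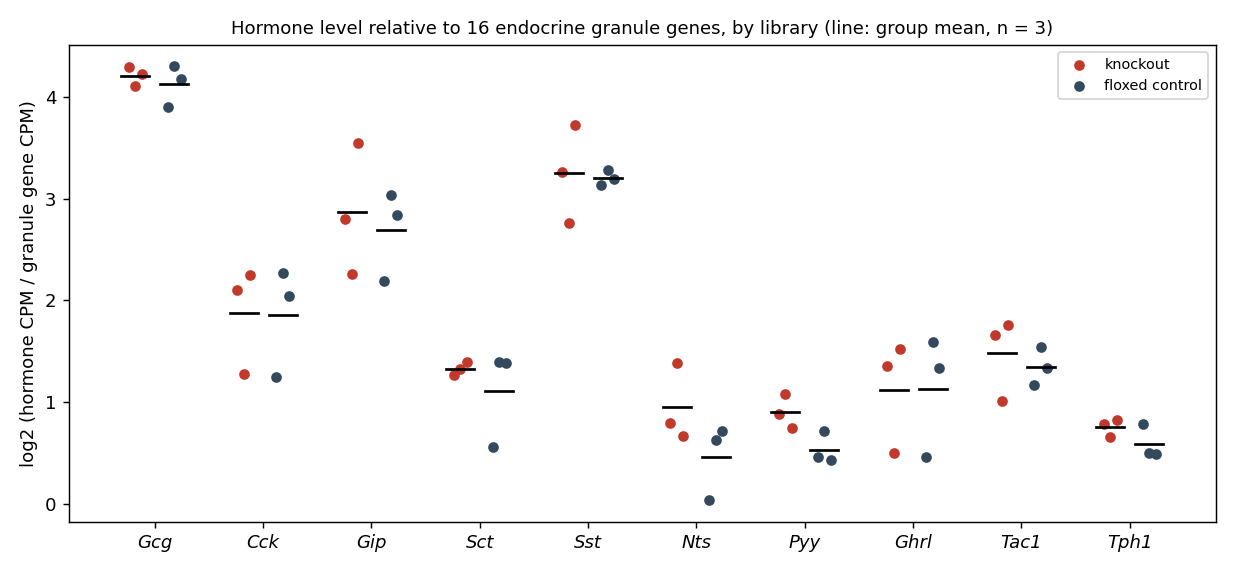
Log2 ratio of each hormone's CPM to the geometric mean CPM of the 16 granule genes in the same library (vertical axis), with the knockouts (red) left of the floxed controls (dark blue) and group means of n = 3 as lines. The groups overlap for each hormone gene except Pyy.

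The mix of hormones was compared by the share of each gene in their sum. Gcg made up 36.3%, 39.7% and 29.9% of the summed hormone CPM in knockouts 1, 2 and 3, against 37.6%, 35.5% and 36.0% in floxed controls 1, 2 and 3. Sst made up 18.2% ± 2.83 in the knockouts and 19.1% ± 2.44 in the floxed controls (SD, n = 3 each). The largest difference in mean share was that of Nts, with 3.92% ± 1.81 in the knockouts and 2.86% ± 0.340 in the floxed controls, and knockout 2 held the highest share, 5.97%. This rests on knockout 2: without it the Nts difference was 0.0291 percentage points and the largest was that of Gcg, at -3.21, which was -1.01 with all libraries. The exact two-sided permutation p-values of the 10 shares, adjusted over the 10 genes, were each 1.0. With 3 libraries a group this does not show that the mix was equal.

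Transcription factors of the lineage mostly had lower values too, with 18 of 19 tested members negative and a median of -0.63. By edgeR 0 were called over all genes, with 7 lower and 1 higher at an unadjusted p under 0.05 (9.63% and 4.09% of all genes tested); with DESeq2, 2 were lower and 1 higher (2.4% and 0.299%). Neurog3, which starts endocrine differentiation, was at 6.04, 5.69 and 5.93 CPM in knockouts 1, 2 and 3, against 9.43, 9.11 and 9.06 CPM in floxed controls 1, 2 and 3. The libraries of each group were close together and the groups did not overlap (log2 -0.64 ± 0.20, adjusted p = 0.193). Insm1, a repressor needed for endocrine differentiation, and Fev, a factor of serotonin cells and endocrine progenitors, had log2 changes of -0.93 ± 0.21 and -1.08 ± 0.26. Sox4, an early factor of the lineage also present in other crypt cells, had -0.36 ± 0.17. Mlxipl, a carbohydrate-responsive factor that is not restricted to endocrine cells, was the member with a positive value (314 ± 42.8 CPM in the knockouts and 187 ± 18.7 CPM in the floxed controls, SD, n = 3 each; log2 0.75 ± 0.18, adjusted p = 0.130).

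**Figure D4:**
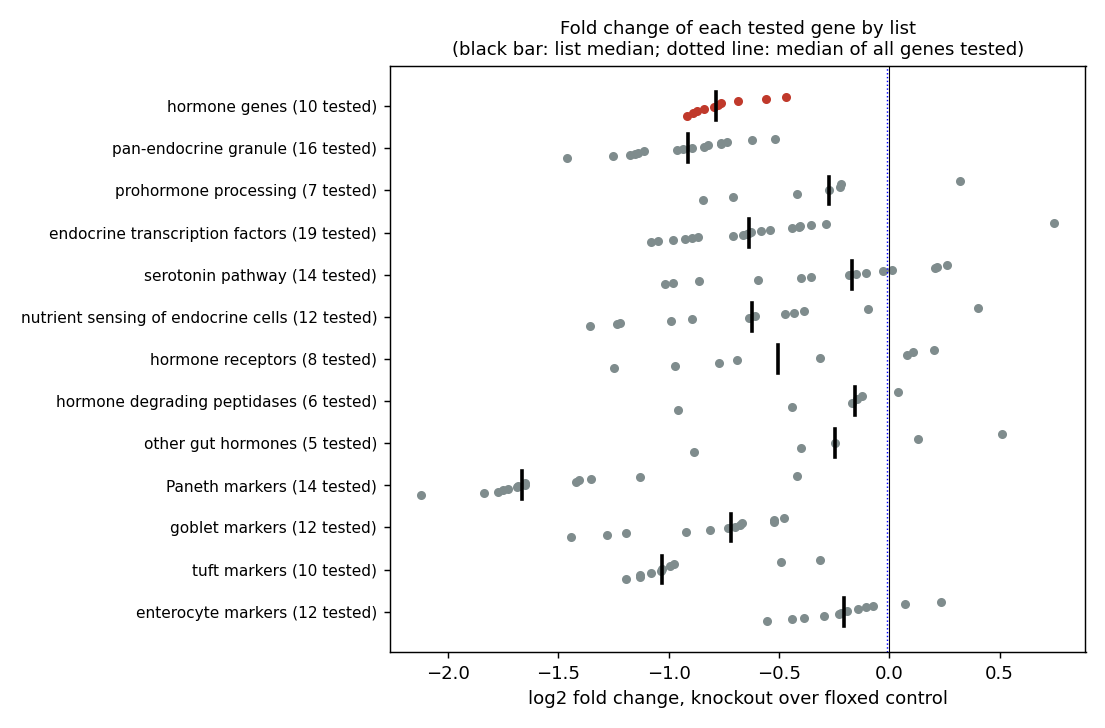
Log2 fold change (knockout over floxed control, horizontal axis) of each tested gene in the hormone list (red) and in companion and cell type lists (grey), with list medians as black bars and the median of all genes tested as a dotted line. The hormone genes lie between -0.92 and -0.47, and the medians of the granule and Paneth lists are -0.91 and -1.67.

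Genes that process or release hormones were less uniform. Of 7 tested processing genes 6 were negative, with a median of -0.27. By edgeR 0 were called, and 2 were lower at an unadjusted p under 0.05 (9.63% of all genes tested). DESeq2 called 0 of them (2.4% of all genes lower). Those with the smallest p were Cpe, which trims basic residues from cut prohormones, at -0.84 ± 0.25, and Pcsk1, the convertase that cuts them, at -0.71 ± 0.25 on the log2 scale. Pcsk5 and Cpd, which are also made by other epithelial cells, had 0.32 ± 0.16 and -0.42 ± 0.24. Of 14 tested serotonin pathway genes 10 were negative, with a median of -0.17. By edgeR 0 were called, and 2 were lower at an unadjusted p under 0.05, against 9.63% of all genes tested. DESeq2 called 1 lower, against 2.4% of all genes. Slc18a1, which loads serotonin into granules, was at 9.65, 10.1 and 8.45 CPM in knockouts 1, 2 and 3, against 23.8, 12 and 21.5 CPM in floxed controls 1, 2 and 3 (log2 -1.02 ± 0.25, adjusted p = 0.140). As for Tph1, floxed control 2 was the lowest control and still above each knockout. Lmx1a, a factor of enterochromaffin cells, had -0.98 ± 0.42, Slc38a11 had -0.60 ± 0.41 and Pts, of cofactor synthesis, had 0.26 ± 0.18. The serotonin-degrading enzyme Maoa and the cofactor enzyme Spr had 0.01 ± 0.20 and -0.03 ± 0.23.

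Nutrient sensors had 11 of 12 tested members negative and a median of -0.62. By edgeR 0 were called, and 4 were lower at an unadjusted p under 0.05, against 9.63% of all genes tested. DESeq2 called 1 lower, against 2.4% of all genes. Ffar2 and Ffar3, receptors for short-chain fatty acids, had log2 changes of -0.89 ± 0.27 and -1.22 ± 0.35, and Gpr119, a receptor for lipid amides on L cells, had -1.36 ± 0.54. Gpr119 was near the floor, at 0.408 ± 0.292 CPM in the knockouts and 1.07 ± 0.297 CPM in the floxed controls (SD, n = 3 each). Ffar3 was also low, at 1.24 ± 0.224 CPM in the knockouts and 2.92 ± 0.714 CPM in the floxed controls. Gper1, a membrane estrogen receptor, had -1.23 ± 0.29. For these 4, named for their small p, every knockout lay below every floxed control, as for 5 of the 12 in all, against 10.3% of all genes tested. Slc5a1, the glucose transporter that is mainly expressed by enterocytes, had -0.38 ± 0.21, and Lpar5, a receptor for lysophosphatidic acid, -0.10 ± 0.17.

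Receptors for the hormones were mostly too low to test: 8 of 23 in the table passed the filter, 5 of them negative, with a median of -0.50. By edgeR 0 were called, and 2 were lower at an unadjusted p under 0.05 (9.63% of all genes tested). DESeq2 called 0 of them (2.4% of all genes lower). The somatostatin receptors Sstr1, Sstr3 and Sstr5 had log2 changes of -1.25 ± 0.42, -0.97 ± 0.44 and -0.77 ± 0.44, and the peptide YY receptor Npy1r had -0.69 ± 0.39. Sort1, a sorting receptor that also binds neurotensin, had -0.32 ± 0.24, and the serotonin receptor Htr4 had 0.11 ± 0.22. Of 6 peptidases that degrade hormones 5 were negative, with a median of -0.16. By edgeR or by DESeq2 0 were called. At an unadjusted edgeR p under 0.05 there were 0, against 13.7% of all genes tested in either direction. Anpep, Mme, Ece1 and Enpep of that list had -0.44 ± 0.28, -0.96 ± 0.61, -0.15 ± 0.19 and -0.17 ± 0.23.

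Other cells that can make some of these products were checked by their markers. Enteric neurons express Tac1 and Sst. The neuronal filament gene Prph had 3 counts and the growth cone gene Gap43 had 1 count over all 6 libraries, and of the 14 neuronal genes listed, 13 were present and 3 passed the filter. The summed level of the neuronal list was 3.33, 3.59 and 3.41 CPM in knockouts 1, 2 and 3, against 5.68, 3.87 and 6.99 CPM in floxed controls 1, 2 and 3. Mast cells express Tph1 in mice. Their tryptase Tpsb2 had 6 counts and their chymase Cma1 had 1 count over all 6 libraries, and Mcpt1, a mucosal mast cell protease, was at 7, 11.3 and 3.97 CPM in the knockouts, against 8.21, 7.21 and 10.4 CPM in the floxed controls. The mast cell list summed to 57.1, 55.7 and 30.4 CPM in the knockouts, against 97.9, 59.1 and 99.8 CPM in the floxed controls, most of it from Kit, which other crypt cells also express. Of the 12 pancreatic genes listed, 3 were in the table and 2 passed the filter. Those absent include Ins1, Ins2, Prss1 and Pnlip. Ctrb1 had 5 counts in all, and Cela1 had a log2 change of -0.07 ± 0.34. Clps, which encodes colipase, was at 246, 169 and 170 CPM in the knockouts, against 551, 501 and 1150 CPM in the floxed controls (log2 -1.91 ± 0.33, adjusted p = 0.068 by edgeR). The Paneth list had a median log2 fold change of -1.67. Which cells the Clps RNA came from was not tested. The part of these cells in the hormone values was not tested.

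Among 11596 other genes with an average log2 CPM of at least 1, the 5 whose log2 CPM over the 6 libraries was most like the mean of the centred hormone levels were Tmem125, Gpd1, Tcf25, Plekhb1 and Pla2g6, with Pearson r of 0.995, 0.992, 0.991, 0.991 and 0.990. Their log2 changes were -0.35 ± 0.16, -0.51 ± 0.19, -0.15 ± 0.16, -1.17 ± 0.36 and -0.35 ± 0.18. In all, 294 of the 11596 genes had r over 0.9, and Chga had r = 0.907. These values rest on 6 libraries and include the difference between the 2 groups, so they are descriptive.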

How the data were processed

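Per the labels' protocols, mRNA libraries were read as 50 bp single ends on a DNBSEQ instrument. The authors deposited expected counts (an estimated count per gene) without normalisation, and 31.1% to 35.2% of each library's values were fractional. The submitters' processing notes name mm10. The sources used here do not state the aligner, counter, annotation or strand setting. The design assumed counts, rounded where not whole, and the values were rounded. RefSeq (GRCm38.p6, a patch of the mm10 assembly) held 17473 of the 17526 gene IDs, including all 10 hormone genes.

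All genes were fitted together with edgeR 4.0.16 in R 4.3.3: filterByExpr (12943 genes tested), TMM scaling, robust glmQLFit, glmQLFTest for knockout over floxed control without covariates, and Benjamini-Hochberg adjustment over all genes tested. The SE of a log2 fold change was derived from that test, as its absolute value divided by the square root of the F statistic. It is therefore not independent of the p-value. DESeq2 1.42.0 and limma 3.58.1 were alternatives. DESeq2 gave no adjusted p for 251 genes. The script was tested on simulated data. Centred log2 levels used edgeR log2 CPM with a prior count of 2. Exact permutation tests used scipy 1.17.1. The members, gene lists, alternatives and tests were chosen with earlier results of these data known. Named genes were all 10 members, up to 4 tested genes of each companion list with the smallest p and the 2 most abundant ones, and the 5 genes most like the members. Markers of other cell types and of intestinal position were shown after their values were seen.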

Additional observations from a re-analysis of the deposited data

How the results depend on the processing

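All 160 log2 fold changes of single hormone genes under the 16 alternatives of the fit were negative, and 5 of them passed the threshold: Gcg by DESeq2, and Gcg and Tph1 both without floxed control 2 and without floxed control 2 and knockout 1 together. The number of hormone genes called was thus 0 as reported, 1 by DESeq2, 0 to 2 with single libraries left out and 2 without floxed control 2 and knockout 1. The number of all genes called was 2 as reported, 0 with DESeq2 size factors, 342 by DESeq2, 1 by limma-voom, 67 without a filter beyond 1 count, 0 to 955 with single libraries left out (955 without floxed control 2), 12 without floxed controls 1 and 3, and 920 without floxed control 2 and knockout 1; the cause was not tested. The hormone median lay between -0.88 and -0.57 when 1 library was left out and was -1.01 without floxed control 2 and knockout 1 and -0.50 without floxed controls 1 and 3, which leaves 1 control assumed to vary like the knockouts. With the replicate number as a block, 39 genes and 0 hormone genes were called, and the hormone median was -0.78. Whether same-numbered libraries were paired is not known here. Their deviations from the group means correlated at -0.177, -0.272 and 0.0681, which cannot decide it with 3 libraries a group. The largest difference in mean hormone share, 1.06 percentage points as reported, lay between 1.35 and 3.21 when 1 library was left out (3.21 without knockout 2). Low counts of receptors limit what can be said of them.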

Other observations

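Other peptide hormone genes were scarce in these crypts. Of 13 in the table outside the 10 described above, 5 passed the filter: Vgf, Gnrh1, Pthlh, Iapp and Nmb, with log2 changes of -0.89 ± 0.55, 0.51 ± 0.37, -0.40 ± 0.45, -0.25 ± 0.44 and 0.13 ± 0.43 (knockout over floxed control, SE). None of these 5 was called by edgeR or by DESeq2. At an unadjusted edgeR p under 0.05 there were 0, against 13.7% of all genes tested in either direction. Gnrh1 was at 1.58, 2.47 and 2.52 CPM in knockouts 1, 2 and 3, against 2.10, 1.25 and 1.28 CPM in floxed controls 1, 2 and 3, and the groups overlapped. Over all 6 libraries Ucn3, Adm and Penk had 39, 34 and 10 counts, Gal had 6, Insl5 (a hormone of colonic L cells) and Nppc had 3 each, and Ppy and Cartpt had 1 each.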
